A study of Mus musculus with 2 samples.

Results

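The Ifi200 genes encode interferon-inducible proteins, many of which bind DNA. Of these genes, 10 were followed through every cell class of mouse pancreatic tumours, out of 32285 genes listed in each library. They are Ifi203, Ifi204, Ifi206, Ifi207, Ifi208, Ifi209, Ifi211, Ifi213, Mndal and Aim2. The 10 genes were chosen because Ifi206 was higher in tumour cells, and Ifi204 in neutrophils, of the knockout library, so the differences between the libraries are given as descriptions throughout. KPC cells, a mouse pancreatic cancer model, had been implanted into the pancreas, and the tumours were taken 21 days later. The control library pooled tumours of 5 Porcnfl/fl mice, which carry the conditional allele without Cre. The knockout library pooled tumours of 5 Csf1r-Cre;Porcnfl/fl littermates. Porcn encodes the acyltransferase that Wnt proteins need for secretion, and the Csf1r promoter drives Cre mainly in macrophages and other myeloid cells, while the implanted tumour cells come from outside the host. The design asks what the loss of myeloid Wnt secretion goes along with across the tumour. With 1 pooled library in each group there is no replicate check, and intervals cover counting error only.

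Typical proteins of this family, also called PYHIN proteins, join a pyrin domain to a HIN domain. The pyrin domain meets other pyrin proteins and the HIN domain grips double-stranded DNA. Not every family protein has both domains. Aim2 (absent in melanoma 2) is the member that assembles an inflammasome: on cytosolic DNA it recruits the adaptor Pycard (ASC) and caspase-1, which matures interleukin-1 beta and interleukin-18 and opens gasdermin pores. Ifi204 is regarded as a mouse counterpart of human IFI16, which feeds the STING pathway and interferon beta. Many members are themselves targets of interferon, so DNA sensing and interferon response are coupled in both directions. Mouse strains differ in the number and arrangement of these genes, which arose by repeated duplication.

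The control library held 11516 cells and the knockout library 10467 after filters, with median depths of 12168 and 10109 unique molecular identifiers (UMIs, each 1 captured transcript) per cell. Of the barcodes, 46 occurred in both libraries. Levels are counts per 1000000 UMIs of the class in a library (CPM). These are tags of the 3' end and are not scaled by gene length, so a level is compared between classes or libraries, not between genes. The labels call the cells tumour-infiltrating, yet the largest class carried Epcam and keratins and was called epithelial/tumour-like, with 8521 control and 5306 knockout cells. The compared classes further held 394 and 712 fibroblast-like, 340 and 428 monocyte/macrophage-like, 291 and 181 neutrophil-like and 191 and 1631 T-like cells, in that order of control and knockout. Porcn was detected at 7 UMIs in control and 4 UMIs in knockout monocyte/macrophage-like cells and at 0 UMIs in both sets of neutrophil-like cells, and a 3' tag need not lie in the deleted part, so these counts do not check the genotype.

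All 10 genes lie in a single cluster on chromosome 1 (GRCm38, the build that the labels call mm10). With Ifi202b, Ifi205 and Ifi214, the cluster holds 13 family genes between 173350879 and 174031810, a span of 680.9 kb with 0 other protein-coding genes wholly inside it. Aim2 (ENSMUSG00000037860) sits at the low-coordinate end on the plus strand, and Ifi206 (ENSMUSG00000037849, 173468485 to 173491041, minus strand) is the next gene. Ifi204 (ENSMUSG00000073489) lies at 173747293 to 173766943 on the minus strand. Ifi203 (ENSMUSG00000039997) and Ifi211 (ENSMUSG00000026536) fall within the annotated span of Mndal (ENSMUSG00000090272, 173849126 to 173942491), all on the minus strand.

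The stretches before the start sites show how closely some members are related, and are printed for the genes that the results turn on. Each is the 250 bases before a RefSeq start (GRCm38.p6), on the gene's strand, with an interferon-stimulated response element (ISRE, searched as GAAA, any 2 bases and GAAA, on both strands) in capitals. They are Ifi206 at chr1:173491319-173491568, Ifi208 at chr1:173673415-173673664, Ifi213 at chr1:173599273-173599522, Mndal at chr1:173880188-173880437 and Ifi203 at chr1:173942493-173942742. Ifi208 and Ifi213 were added after their values were seen.
Ifi206: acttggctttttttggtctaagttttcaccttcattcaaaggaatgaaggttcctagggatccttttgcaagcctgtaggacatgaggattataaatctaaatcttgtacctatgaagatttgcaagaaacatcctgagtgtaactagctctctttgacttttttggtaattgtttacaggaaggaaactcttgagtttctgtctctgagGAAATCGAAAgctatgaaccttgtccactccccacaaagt
Ifi208: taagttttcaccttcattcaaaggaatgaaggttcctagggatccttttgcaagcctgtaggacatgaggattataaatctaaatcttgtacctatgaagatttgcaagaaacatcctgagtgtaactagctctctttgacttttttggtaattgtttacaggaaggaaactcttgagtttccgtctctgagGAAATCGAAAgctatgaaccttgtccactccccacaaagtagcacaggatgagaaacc
Ifi213: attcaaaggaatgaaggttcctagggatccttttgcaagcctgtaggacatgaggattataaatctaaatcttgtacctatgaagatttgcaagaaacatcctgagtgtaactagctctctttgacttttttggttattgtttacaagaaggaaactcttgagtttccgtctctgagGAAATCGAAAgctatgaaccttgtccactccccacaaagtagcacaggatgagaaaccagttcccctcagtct
Mndal: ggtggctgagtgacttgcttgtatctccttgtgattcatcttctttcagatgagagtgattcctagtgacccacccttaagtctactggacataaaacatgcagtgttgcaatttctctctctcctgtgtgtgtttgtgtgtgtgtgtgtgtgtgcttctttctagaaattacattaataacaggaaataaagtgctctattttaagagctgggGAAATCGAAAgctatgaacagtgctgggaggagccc
Ifi203: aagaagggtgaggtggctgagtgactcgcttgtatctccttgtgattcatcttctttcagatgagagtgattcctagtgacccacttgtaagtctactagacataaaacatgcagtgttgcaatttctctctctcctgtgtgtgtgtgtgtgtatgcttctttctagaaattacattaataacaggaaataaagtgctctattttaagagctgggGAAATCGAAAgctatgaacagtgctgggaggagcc

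Of the 10 members, 9 (all but Ifi204) matched an entry in the RefSeq promoter table. An ISRE match was found in 7 of these 9: Ifi203 (at 1 of its 2 starts), Ifi206, Ifi207, Ifi208, Ifi211, Ifi213 and Mndal (at both starts). No match lay in the window of Aim2 or Ifi209. Over all genes in the table, 3.46% had a match in a window of the same length. In Ifi206 the match began 40 bases before the start, and in Ifi213 73 bases before it. The motif of gamma-activated sites (TTCNNNGAA) was in none of the 9 members' windows, against 8.13% of all genes. The windows of Ifi206 and Ifi208 shared an identical run of 182 bases, and that of Ifi213 shared a run of 135 bases with each. Mndal and Ifi203 shared a run of 96 bases that held the ISRE, and Ifi206 shared with both the 20 bases gGAAATCGAAAgctatgaac. These are letter matches and not measured binding sites.

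The copies are also alike where the reads fall. Among stretches of 90 bases in the last 500 bases of transcripts, 59.4% of those of Ifi211 occurred in Ifi205 or Mndal, and 37.1% of those of Ifi209 occurred in Ifi214. The share was 12.1% for Ifi206, 9.33% for Mndal, 7.87% for Ifi208, 7.54% for Ifi213 and 1.05% for Ifi203. It was 0 for Ifi204, Ifi207 and Aim2. Counts of Ifi211 and Ifi209 are therefore uncertain where the counting could drop or split shared reads, while Ifi204, Ifi207 and Aim2 were distinct by this measure.

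The cell classes carried different members of the family. Epithelial/tumour-like and fibroblast-like cells carried Ifi203, Ifi204, Ifi207, Ifi211 and Mndal, and had the other 5 at low levels or near 0. In the control library Mndal stood at 191 CPM in epithelial/tumour-like and 144 CPM in fibroblast-like cells, and Ifi204 at 117 and 126 CPM. Aim2 stood at 0.511 and 1.49 CPM in the same classes. T-like cells showed the reverse for Aim2 and Ifi204. In the control library Aim2 stood there at 163 CPM and Ifi204 at 10.2 CPM. In the knockout library the levels were 135 and 14.7 CPM. T-like cells carried Ifi203 (224 and 260 CPM) and Mndal (230 and 307 CPM) as well, and almost no Ifi207 (1 and 17 UMIs). Knockout NK-like cells (236 cells) and B-like cells (449 cells) had the T-like set, with Aim2 at 143 and 123 CPM and Ifi204 at 26.7 and 19.98 CPM.

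**Figure D1:**
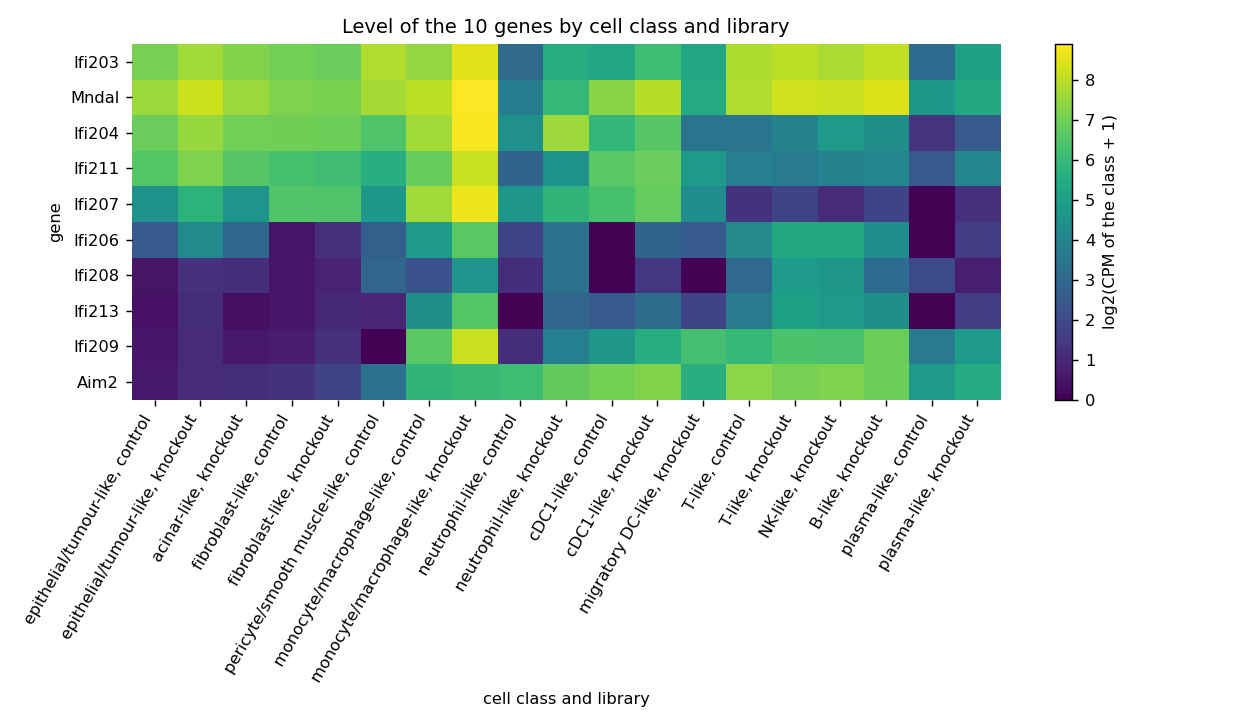
Each tile is the level of a gene (rows) in a cell class and library (columns, at least 50 cells each), as log2 of CPM of the class plus 1. Aim2 is dark in epithelial, acinar, fibroblast and pericyte columns and bright in lymphoid ones, where Ifi204 and Ifi207 are darker, and knockout monocyte/macrophage-like cells hold the brightest tiles.

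Monocyte/macrophage-like cells held all 10 members and the highest summed level, 1164 CPM (1119 to 1211, exact Poisson 95% interval) in the control and 2560 CPM (2498 to 2622) in the knockout library. In the control library T-like cells followed at 740 CPM, then pericyte/smooth muscle-like (618 CPM), cDC1-like (596 CPM), fibroblast-like (566 CPM) and epithelial/tumour-like cells (565 CPM). The intervals of neighbours in this order overlapped from pericyte/smooth muscle-like down to epithelial/tumour-like cells. Neutrophil-like cells (147 CPM) and plasma-like cells (82.3 CPM) were lowest. Among named classes of the knockout library, B-like, T-like, epithelial/tumour-like, NK-like and cDC1-like cells lay between 850 and 932 CPM, with overlapping intervals between neighbours, and fibroblast-like cells at 537 CPM and neutrophil-like cells at 520 CPM overlapped too. Plasma-like cells were again lowest, at 174 CPM.

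Aim2 alone had another order. In the control library it was highest in T-like (163 CPM, 134 to 196) and cDC1-like cells (132 CPM, 100 to 171), whose intervals overlapped. Neutrophil-like (69.9 CPM) and monocyte/macrophage-like cells (55.5 CPM) came next and overlapped as well. In the knockout library cDC1-like, NK-like, T-like, B-like and neutrophil-like cells lay between 107 and 150 CPM, and monocyte/macrophage-like cells at 62.7 CPM. Of a member's UMIs in the control library, epithelial/tumour-like cells held 85.8% for Mndal, 83.6% for Ifi204 and 78.6% for Ifi206, but 12.5% for Aim2 and 14.5% for Ifi209, the last of which had 49.1% of its UMIs in monocyte/macrophage-like cells.

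RNA released from other cells sets a floor under these levels. Of 5 genes shared by leukocytes (Ptprc, Tyrobp, Fcer1g, Laptm5 and Coro1a), 5 of 5 were detected in epithelial/tumour-like cells, at a median 0.108% of their monocyte/macrophage-like level in the control and 0.327% in the knockout library, and at most 0.245% and 1.01%. Ifi203, Ifi204, Ifi211 and Mndal stood at 57.0 to 82.1% of their monocyte/macrophage-like level in the control and 40.9 to 61.7% in the knockout library. Ifi206 stood at 16.8% and 18.1%. Aim2 (0.921% and 1.70%), Ifi209 (0.452% and 0.362%) and Ifi213 (1.81% and 1.35%) stood at under 2% of it. Of these, Ifi209 in the knockout library was within the range of the leukocyte genes, and the others were above their highest value. Aim2, however, was higher in T-like cells (163 and 135 CPM) than in monocyte/macrophage-like cells (55.5 and 62.7 CPM), so its share of the T-like level was lower. The 11 T cell markers stood in epithelial/tumour-like cells at a median 0.0230% and 0.222% of their T-like level, and at most 1.98% and 0.464%. How much of the Aim2 there was released RNA was not tested.

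Ifi206, chosen for its difference in epithelial/tumour-like cells, was low in the control library there. It stood at 4.75 CPM (4.395 to 5.13, 660 UMIs) in the control and 17.8 CPM (17.0 to 18.7, 1702 UMIs) in the knockout library, 3.74-fold higher (3.42 to 4.10, exact conditional 95% interval) and 1.90 on the log2 scale. At least 1 UMI of it was seen in 4.53% of control and 16.7% of knockout cells. After each cell was thinned to 1000 UMIs, which left out 42 control and 18 knockout cells, the shares were 0.448% and 1.63%. In fibroblast-like cells, which hardly carry the gene, the unthinned shares were 0.508% and 0.843%, and the thinned shares were 0 in 392 and 0 in 707 cells, which allow up to 0.937% and 0.520% (exact binomial upper limits). The 11 T cell markers summed to 2.48 and 13.5 CPM in epithelial/tumour-like cells, with 0 of 11 at 0 UMIs in either library, and with cells that held UMIs of another lineage left out the log2 ratio of Ifi206 was 1.84.

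The other members in these cells fell into a pair of sets. Ifi207 stood at 23.1 and 53.5 CPM in control and knockout (2.32-fold, 2.22 to 2.42). The 4 abundant members were higher by a smaller and nearly equal step. Mndal stood at 191 and 296 CPM (1.55-fold), Ifi204 at 117 and 183 CPM (1.56-fold), Ifi211 at 93.8 and 143 CPM (1.53-fold), and Ifi203 at 134 and 201 CPM (1.50-fold). The 4 scarce members, with 51 to 133 UMIs per library, were Ifi208 (0.396 and 1.39 CPM, 3.51-fold, 2.55 to 4.90), Ifi213 (0.367 and 1.22 CPM, 3.33-fold, 2.38 to 4.72), whose intervals overlapped that of Ifi206, Ifi209 (0.446 and 1.07 CPM) and Aim2 (0.511 and 1.07 CPM). The summed level of the 10 members was 565 and 899 CPM, a log2 ratio of 0.67 (0.66 to 0.68). Of the 10 members, 6 passed a 2-fold difference upward and 0 downward, where 5.08% and 2.17% of 17212 genes with at least 20 UMIs did, and the choice of the genes used this contrast. With the clusters weighted alike, Ifi207 (0.52) and Ifi209 (0.35) were under that difference. Within clusters 12 and 2 the log2 ratio of Ifi207 was 0.44 and 0.22. Aim2, Ifi209 and Ifi213 are among the 6, and the median of the leukocyte genes, given above, was also higher in the knockout library.

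**Figure D2:**
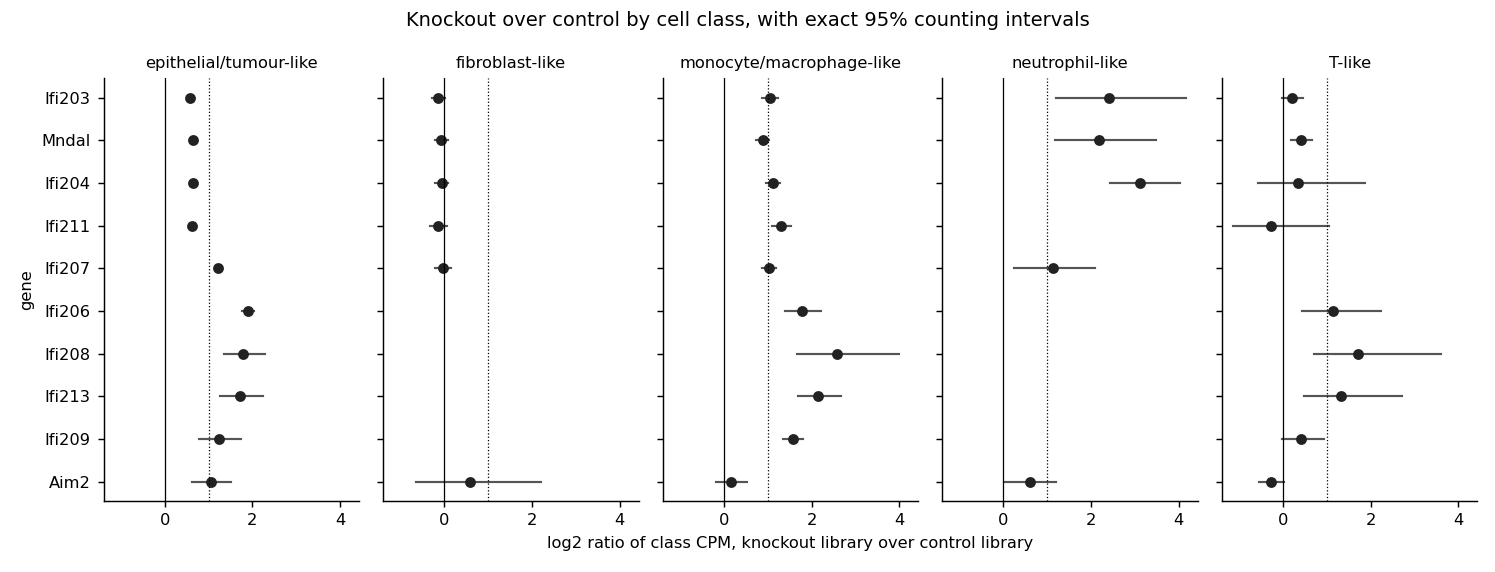
Points are log2 ratios of class CPM, knockout library over control library, and bars are exact 95% counting intervals. The solid line is 0 and the dotted line a 2-fold difference, and genes with fewer than 20 UMIs are left out. Fibroblast-like intervals all reach 0, with Aim2 the point farthest from it at 0.60. All monocyte/macrophage-like points lie above 0, and among them only the interval of Aim2 spans 0.

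Epithelial/tumour-like cells were clustered again without the family genes, which split them into 15 clusters, and Ifi206 was concentrated in 2 of them. Cluster 12 led with genes that include Inhba, Hilpda and Grem1, which act in activin signalling, hypoxia and BMP antagonism. It held 896 control and 1413 knockout cells, 10.5% and 26.6% of the class. Cluster 2 led with the interferon-induced chemokine and GTPase genes Cxcl10, Cxcl9 and Gbp5, and held 716 and 722 cells, 8.40% and 13.6% of the class. Of the Ifi206 UMIs of the class, cluster 12 held 47.7% in the control and 58.1% in the knockout library and cluster 2 held 28.3% and 21.7%. Both clusters also stood high for the summed level of 28 type I interferon response genes. That sum was 6413 and 7469 CPM in cluster 12 and 7622 and 8035 CPM in cluster 2, in control and knockout. Of the other clusters, the highest were knockout cells of cluster 15 (6537 CPM) and of cluster 9 (4214 CPM).

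Within cluster 12, Ifi206 stood at 20.5 CPM in the control and 38.0 CPM in the knockout library, a log2 ratio of 0.89 (0.71 to 1.08). Within cluster 2 it stood at 15.9 and 27.0 CPM, a log2 ratio of 0.76 (0.50 to 1.02). The cycling cluster 9, led by Ube2c, Cenpf and Top2a, stood at 2.96 and 11.1 CPM. Cluster 8 (Adamts1, Cxcl12) stood at 1.60 and 7.31 CPM and cluster 5 (Fos, Egr1) at 2.60 and 11.6 CPM. The mucous cluster 6, led by Muc5ac, was among the lowest with 0.355 and 0.903 CPM. Cluster 15, of 22 and 69 cells, carried T cell transcripts (Cd3g, Nkg7) and had 7.01 and 37.0 CPM. Among clusters with at least 20 UMIs of Ifi206, the interval of its log2 ratio lay above 0 in clusters 2, 3, 5, 8, 9, 10, 12 and 15. It spanned 0 in clusters 1 and 6. Cells of the knockout library also lay more often in the 2 clusters with most Ifi206. With the clusters weighted alike in both libraries the log2 ratio of Ifi206 was 1.09 in place of 1.90, and that of the family sum 0.33 in place of 0.67. Without clusters 11, 13, 14 and 15 it was 1.89.

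**Figure D3:**
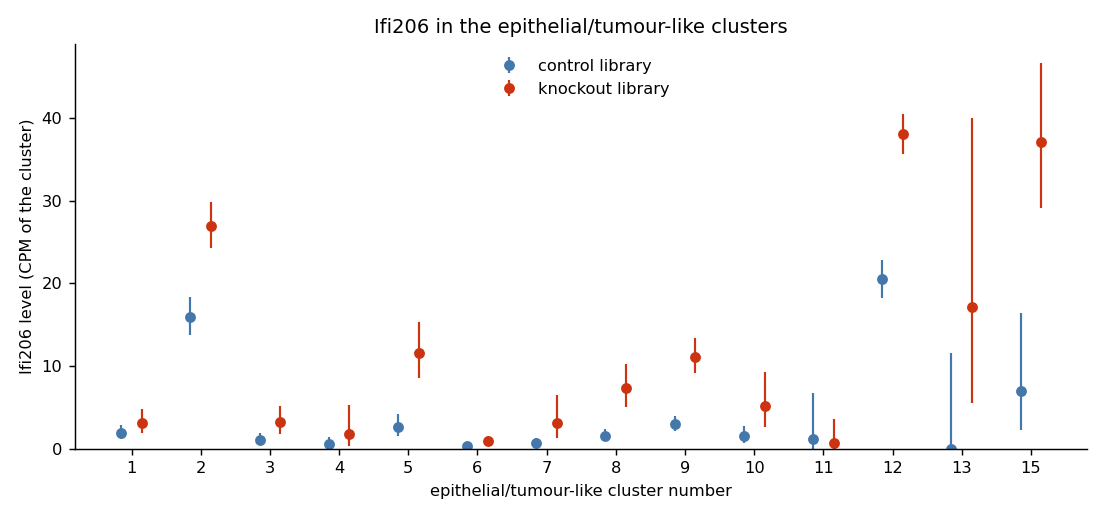
Points are the level of Ifi206 in CPM of each epithelial/tumour-like cluster with at least 20 cells in each library, with exact Poisson 95% intervals, for the control (blue) and knockout (red) library. Among control cells clusters 12 and 2 stand highest, and among knockout cells cluster 15, which holds T cell transcripts, lies between them.

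The summed family level was spread more evenly than Ifi206. Over the clusters with at least 20 cells in each library, it ranged from 284 CPM in control cluster 11 to 1277 CPM in control cluster 2, and in the knockout library from 96.8 CPM in cluster 11 to 1402 CPM in cluster 2. Within clusters 2 and 12 the log2 ratio of the sum was 0.14 and 0.24. The cycling cluster 9 showed a wider gap, from 508 to 891 CPM (log2 ratio 0.81, 0.77 to 0.85), to which Mndal (193 and 357 CPM) and Ifi203 (119 and 223 CPM) contributed most. Cluster 11, of 43 and 54 cells that led with Epcam, Tff2 and Ttr, went the other way, from 284 to 96.8 CPM (log2 ratio −1.55, −1.86 to −1.25). Its type I interferon list sum was also lower in the knockout library, at 1904 and 1324 CPM.

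The members were next set against the type I interferon response of each cell, as the summed UMIs of 28 response genes (Isg15, Ifit1, Mx1 and others, none of them a family gene) after thinning to 5000 UMIs. Of the epithelial/tumour-like cells, 45.0% in the control and 69.1% in the knockout library had over 10 such UMIs. Most Ifi206 lay in them in both libraries: it stood at 9.93 and 24.6 CPM there, at 0.620 and 1.60 CPM in cells with 6 to 10, and at 0.158 and 0.607 CPM in cells with 3 to 5. Ifi207 climbed across the bins from 3.71 CPM at 1 to 2 UMIs to 42.0 CPM over 10 in the control library. Mndal was present in every bin, from 63.3 CPM at 0 UMIs to 285 CPM over 10 in the control library, and from 63.5 to 362 CPM in the knockout library. Aim2 showed no such climb, with 0.601 CPM at 1 to 2 UMIs and 0.553 CPM over 10 in the control library, and 1.45 and 0.894 CPM in the knockout library. At 3 to 5 UMIs Ifi207 stood at 5.38 and 11.2 CPM, and Mndal at 97.3 and 125 CPM, in control and knockout. At 6 to 10 UMIs Ifi207 stood at 8.78 and 16.1 CPM and Mndal at 129 and 153 CPM. In the bin over 10 the knockout library was also higher for Ifi206, Ifi207 and Mndal, and that bin has no upper bound.

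**Figure D4:**
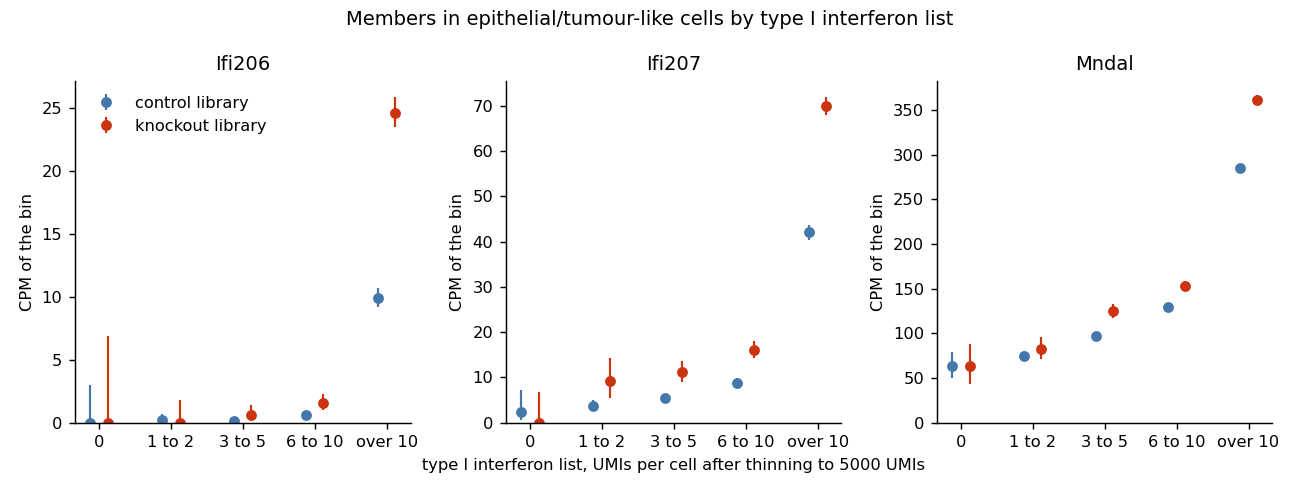
Points are the level of Ifi206, Ifi207 and Mndal (CPM of the bin) in epithelial/tumour-like cells grouped by their type I interferon list UMIs after thinning to 5000 UMIs, with exact Poisson 95% intervals, for control (blue) and knockout (red). Ifi206 is near 0 up to 5 UMIs, while Mndal has a level of about 63 CPM even in cells with 0 UMIs of the list.

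Over 26 sums of tumour clusters by library, the genes outside the family most like Ifi206 by Pearson correlation of log2(CPM + 10) were Ifi44 (0.96), Usp18 (0.92), AW011738 (0.91), Ifit3b (0.90) and Bst2 (0.90). Usp18 is a brake on interferon signalling and Bst2 a tether of enveloped viruses. The sums share 2 libraries and the clusters were built from interferon genes among others, so the coefficients are a description. Over 19 sums of cell classes by library, the genes most like Ifi204 were Tor3a (0.91), Ifitm3 (0.89), Parp12 (0.89), Il18 (0.87) and Irf7 (0.87). For Aim2 they were the leukocyte genes Inpp5d (0.98), Coro1a (0.97), Dock10 (0.96), Hcls1 (0.96) and Ptpn18 (0.96). For Ifi206 across classes the coefficients were lower, from Ms4a6b (0.81) to Dok2 (0.78).

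Monocyte/macrophage-like cells, in which Csf1r stood at 243 and 269 CPM, had higher levels of all 10 members in the knockout library. The interval of the ratio lay above 0 for 9 of the 10. Ifi204 stood at 205 and 448 CPM in control and knockout (2.18-fold, 1.95 to 2.44). Ifi206 stood at 28.2 and 98.1 CPM (3.47-fold, 2.61 to 4.69). Ifi209 stood at 98.8 and 294 CPM (2.98-fold), and Ifi213 at 20.2 and 90.7 CPM (4.48-fold, 3.23 to 6.36). Ifi208 was scarce, with 8 and 64 UMIs (3.76 and 24.9 CPM, 6.62-fold, 3.16 to 15.99). Among the 10 members, Ifi206, Ifi208 and Ifi213 had the 3 highest log2 ratios here (1.78, 2.58 and 2.14). They also had the 3 highest in T-like cells (1.15, 1.71 and 1.32) and in epithelial/tumour-like cells (1.90, 1.80 and 1.72). These 3 share upstream runs of 135 or 182 bases, but other members share long runs too. Mndal and Ifi203, with a run of 96 bases, stood here at 0.89 and 1.05. Ifi209, which shares a run of 109 bases with Ifi214, stood at 1.57. A link between upstream sequence and these ratios was not tested. Of the family genes that are not members, Ifi205 (2.08) and Ifi214 (1.96) were above Ifi206 in monocyte/macrophage-like cells, and the longest run that Ifi205 shares with the window of Ifi206 is 13 bases.

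Aim2 differed from the rest of the family in this class. Its level was 55.5 CPM in the control and 62.7 CPM in the knockout library (118 and 161 UMIs), a log2 ratio of 0.17 with an interval from −0.18 to 0.53. The summed family was 2.20-fold higher (2.10 to 2.30), a log2 ratio of 1.14. Passing a 2-fold difference upward were 8 of 10 members, and 0 passed it downward, against 2.92% and 3.79% of 9898 genes. With the clusters weighted alike, 7 of the 8 were under that difference, at log2 ratios from 0.45 (Ifi207) to 0.96 (Ifi213), and Ifi208 (1.18) was past it. Cells with more than 10 type I interferon UMIs after thinning to 2000 made up 21.8% of the control and 53.0% of the knockout class. In those cells Ifi204 stood at 486 and 733 CPM and Ifi206 at 96.1 and 190 CPM, while Aim2 stood at 80.1 and 67.2 CPM.

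The class split into 5 clusters. Cluster 5, led by the monocyte genes Ly6c2 and Plac8 with Slfn4 and Cxcl10, grew from 42 to 161 cells and had the highest family sum, 3880 and 5158 CPM. Ifi204 in it stood at 687 and 888 CPM. Cluster 1, led by Chil3, Mmp12 and Spp1, genes of tissue-remodelling macrophages, had 131 and 75 cells and showed the widest gap, with a sum of 890 and 1941 CPM (log2 ratio 1.12, 1.01 to 1.24) and Ifi206 at 19.7 and 94.7 CPM. Cluster 3, led by Slc9a9, Tmem176a and Cx3cr1, had 139 and 168 cells and a sum of 1072 and 1307 CPM. In clusters 1, 3 and 5 the interval of Aim2 spanned 0. With the clusters weighted alike the log2 ratio of the family sum was 0.49 in place of 1.14. Cluster 5 held 12.4% of the control and 37.6% of the knockout cells, and cluster 1 held 38.5% and 17.5%.

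Neutrophil-like cells were small in number and shallow, with median depths of 1709 and 1861 UMIs. Ifi204 had 17 UMIs in 291 control cells (21.2 CPM, 12.4 to 34.0) and 87 UMIs in 181 knockout cells (193 CPM, 155 to 239). This is 9.11-fold higher (5.38 to 16.4) and 3.12 on the log2 scale. Cells with a UMI were 3.78% and 19.9%, or 2.53% and 12.8% after thinning to 1000 UMIs. In T-like cells, which carry little of it, the thinned shares were 0.549% and 1.88% at median depths of 2823 and 3342 UMIs. Mndal stood at 12.5 and 60.04 CPM (10 and 27 UMIs), Ifi203 at 7.49 and 44.5 CPM (6 and 20 UMIs) and Ifi207 at 24.98 and 55.6 CPM. Aim2, the most frequent member in control neutrophil-like cells, stood at 69.9 and 107 CPM (1.53-fold, 1.02 to 2.28). The summed level was 147 and 520 CPM, a log2 ratio of 1.81 (1.49 to 2.15). Of the 5 members with at least 20 UMIs, 4 passed a 2-fold difference upward and 0 downward, against 7.82% and 6.98% of 5587 genes. Of the 4, Ifi207 was at −0.02 on the log2 scale with clusters weighted alike. The other 5 had 3 to 15 UMIs over both libraries.

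Transcripts of other classes moved with this result. The 12 monocyte/macrophage markers were at a median 1.29% of their monocyte/macrophage-like level in control and 7.27% in knockout neutrophil-like cells, with 1 and 0 of the 12 at 0 UMIs, and their summed level was 4691 and 2693 CPM. Csf1r stood at 30.0 and 42.3 CPM. Of 11 T cell markers, 9 were at 0 UMIs in the control and 2 in the knockout neutrophil-like cells, and their sum was 28.7 and 182 CPM. The 10 neutrophil markers summed to 166248 and 84110 CPM. Ifi204 reached 10.4% and 43.2% of its monocyte/macrophage-like level, and Mndal 4.82% and 12.5%. When cells with a UMI of C1qa, C1qb, C1qc, Cd3e, Epcam or Krt8 were left out, the log2 ratio of Ifi204 was 3.14. The part of the lower neutrophil marker sum was not tested.

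Most Ifi204 UMIs in these cells lay in the cluster led by interferon genes. Cluster 5 of the neutrophil-like cells, led by Ifit1, Rsad2 and Usp18, held 18.9% of the control and 53.6% of the knockout cells (55 and 97). It had 13 and 61 of the Ifi204 UMIs, at 143 and 340 CPM (log2 ratio 1.16, 0.37 to 2.23). In cluster 1, led by Cd244a and Cd101, Ifi204 had 1 UMI in 94 control cells and 19 UMIs in 37 knockout cells, a ratio of 32.5 with an interval from 5.17 to 1352. In cluster 2, led by Clec4n, Cd80 and Ptgs2, it had 2 and 3 UMIs. The type I interferon list sum stood at 2418 and 8721 CPM in cluster 1, 2238 and 5150 CPM in cluster 2, and 18067 and 21243 CPM in cluster 5. With the clusters weighted alike the log2 ratio of Ifi204 was 1.84 in place of 3.12. With a filter of at least 1000 detected genes and at most 10% mitochondrial UMIs per cell, 74 and 43 neutrophil-like cells were left, and the log2 ratio of Ifi204 was 4.70.

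**Figure D5:**
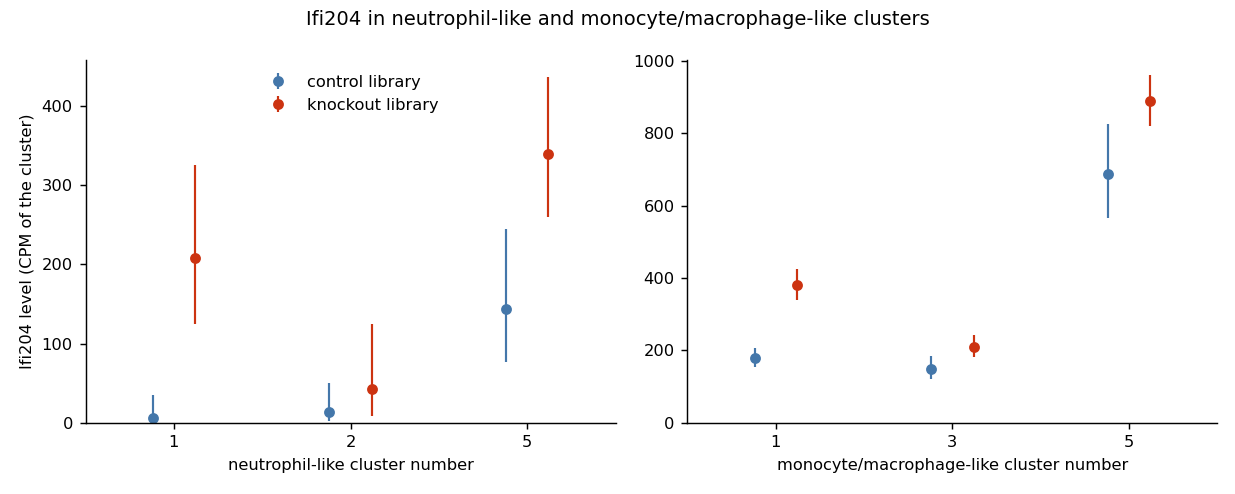
Points are the level of Ifi204 in CPM of neutrophil-like (left) and monocyte/macrophage-like (right) clusters with at least 20 cells in each library, with exact Poisson 95% intervals, for control (blue) and knockout (red). The axes differ in scale. The intervals of the libraries are apart in neutrophil clusters 1 and 5 and in macrophage cluster 1.

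In T-like cells 3 scarce members and Mndal had intervals above 0. Ifi206 stood at 17.5 and 41.7 CPM (12 and 284 UMIs, 2.39-fold, 1.35 to 4.68), Ifi208 at 7.28 and 28.4 CPM and Ifi213 at 11.6 and 32.5 CPM. Mndal stood at 230 and 307 CPM (1.33-fold, 1.13 to 1.58). Ifi203 stood at 224 and 260 CPM and Ifi209 at 61.2 and 82.7 CPM, with intervals that span 1. Aim2 was at 163 and 135 CPM, a log2 ratio of −0.28 (−0.56 to 0.02). The intervals of Ifi204 (7 and 100 UMIs, log2 ratio 0.35) and Ifi211 (9 and 81 UMIs, log2 ratio −0.27) spanned 0 too. Of 9 members with at least 20 UMIs, 3 passed a 2-fold difference upward and 0 downward, against 4.09% and 6.14% of 11302 genes. The log2 ratio of Ifi206 was under 1 with clusters weighted alike (0.84), and that of Ifi213 was under 1 as a mean over cells (0.69). Cluster 5 of the T-like cells, led by Ccl3, Prf1 and Ifng, was the largest in both libraries (96 and 468 cells), and in it Ifi206 stood at 24.5 and 63.0 CPM. In cluster 4 (22 and 225 cells) Ifi206 had 2 and 28 UMIs and Ifi213 had 2 and 17 UMIs, with log2 ratios of −0.06 and −0.75 and intervals that spanned 0.

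Fibroblast-like cells showed no gap of this kind in the 5 members they carry. Mndal stood at 144 and 137 CPM, Ifi203 at 127 and 115 CPM, Ifi204 at 126 and 121 CPM, Ifi207 at 87.8 and 86.3 CPM and Ifi211 at 77.8 and 70.7 CPM, with log2 ratios from −0.14 to −0.03 and intervals that spanned 0. The summed level was 566 and 537 CPM, a log2 ratio of −0.08 (−0.15 to −0.00). Passing a 2-fold difference were 0 of 6 members with at least 20 UMIs in either direction, against 4.44% upward and 2.96% downward of 12641 genes. The direction of the sum depended on which cells were in the class: the log2 ratio was 0.04 with doublets kept, 0.24 at a coarser clustering (670 control and 763 knockout cells) and 0.22 with the family genes among the variable genes. Among the family genes that are not members, Ifi205 stood at 167 and 122 CPM in these cells, a log2 ratio of −0.44 (−0.59 to −0.30).

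In the 4 classes whose family sum had an interval above 0, the median of the type I interferon list was above that of all genes. In fibroblast-like cells the median of the list was below that of all genes. Over all genes, 5.08% passed a 2-fold difference upward in epithelial/tumour-like and 2.92% in monocyte/macrophage-like cells. In neutrophil-like cells 7.82% did. Upward and downward, the shares were 4.09% and 6.14% in T-like cells and 4.44% and 2.96% in fibroblast-like cells. Of the list's genes with at least 20 UMIs, 7 of 28 passed a 2-fold difference upward in epithelial/tumour-like cells (median log2 ratio 0.60, all genes −0.05), led by Ifi27l2a (1.45), Ifi44 (1.16) and Ifit3b (1.10). In monocyte/macrophage-like cells 16 of 28 did (median 1.11, all genes −0.03), led by Ifi44 (2.28). In neutrophil-like cells 22 of 26 did (median 1.56, all genes −0.03), led by Rsad2 and Cmpk2 (2.53 each). In T-like cells 6 of 27 did (median 0.27, all genes −0.08). In fibroblast-like cells 0 passed upward and 2 of 28 downward (median −0.33, all genes 0.06), the lowest being Oas3 (−1.16) and Isg15 (−1.15). The interferon gamma list had 16 of 19 upward in neutrophil-like cells, with a median log2 ratio of 1.52 and 19 intervals above 0. Epithelial/tumour-like cells had 1 of 22 upward, yet all 22 intervals lay above 0 (median 0.30). Monocyte/macrophage-like cells had 3 of 21 upward, with 14 intervals above 0 and 1 below it (median 0.37). Fibroblast-like cells had 0 of 21 upward and 2 downward, with 10 intervals below 0 and 0 above it (median −0.41). T-like cells had 1 of 21 upward and 1 downward, with 1 interval above 0 and 1 below it (median 0.20). Immediate-early and heat-shock genes, which tissue dissociation can induce, also differed, with a median log2 ratio over 10 genes of 0.74 in monocyte/macrophage-like cells, 0.65 in T-like cells, 0.57 in neutrophil-like cells, 0.46 in epithelial/tumour-like cells and −0.04 in fibroblast-like cells, and their part in the results was not tested.

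Genes of an inflammasome list, which is not limited to partners of Aim2, differed by class. Of the inflammasome list, 0 of 15 passed a 2-fold difference in epithelial/tumour-like cells, against 5.08% upward and 2.17% downward of all genes. The highest there was the adaptor Pycard (1.66 and 3.02 CPM, log2 ratio 0.86). In monocyte/macrophage-like cells 10 of 17 had an interval above 0 and 1 below it, and 4 of 17 passed upward, against 2.92% of all genes: Nlrp1a (3 and 18 UMIs), Casp4, the intracellular sensor of lipopolysaccharide (42.3 and 91.9 CPM, log2 ratio 1.11), Mefv (16.5 and 35.0 CPM) and Naip6. Pycard stood there at 384 and 349 CPM. In neutrophil-like cells 7 of 12 had an interval above 0 and 1 below it, with a median log2 ratio of 0.61. Of the 12, 4 passed upward, against 7.82% of all genes, Il18 (26.2 and 73.4 CPM), Casp8 (36.2 and 95.6 CPM), Ninj1 and Casp4, and 1 downward, Gsdme (245 and 109 CPM). Il1b, whose product caspase-1 matures, stood at 3878 and 6231 CPM in neutrophil-like cells, a log2 ratio of 0.68.

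The STING pathway list, to which Ifi204 is linked, had a median log2 ratio of 0.01 in epithelial/tumour-like cells. Of its 14 genes with at least 20 UMIs, 4 had an interval above 0 and 5 below it. Past a 2-fold difference upward was 1 of 14, against 5.08% of all genes. That gene was Ifnb1, interferon beta, with 6 UMIs in the control and 28 UMIs in the knockout library over all epithelial/tumour-like cells. The sensor Cgas stood at 3.14 and 3.59 CPM and the kinase Tbk1 at 35.4 and 35.0 CPM. In monocyte/macrophage-like cells 1 of 14 passed upward, against 2.92% of all genes. It was also Ifnb1, at 0 UMIs in the control and 38 UMIs in the knockout library. Cgas stood at 11.8 and 21.0 CPM there (25 and 54 UMIs). In neutrophil-like cells 1 of 8 passed upward, against 7.82% of all genes. It was Zbp1, a sensor of Z-form nucleic acid, at 35.0 and 84.5 CPM.

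Genes that flank the cluster went in both directions in epithelial/tumour-like cells, where all 10 members were higher in the knockout library. Within 1000 kb on either side, 13 of 40 listed genes had at least 20 UMIs there, and their median log2 ratio was −0.11. Fmn2 (8 and 26 UMIs) and Apcs (9 and 19 UMIs) passed a 2-fold difference upward and Igsf9 (296 and 72 UMIs) downward, against 5.08% and 2.17% of all genes. Of the 13, 3 had an interval above 0 and 4 below it. Slamf8 (255 and 290 UMIs) was among the 3, with a log2 ratio of 0.72 (0.48 to 0.97), close to the 0.67 of the family sum. In monocyte/macrophage-like cells 6 flanking genes had at least 20 UMIs, with a median log2 ratio of 0.65. Of the 6, 1 passed upward, Dusp23 (15 and 39 UMIs), against 2.92% of all genes. The myeloid receptor genes Slamf8 (54.1 and 81.0 CPM) and Slamf9 (56.5 and 94.6 CPM) were higher in the knockout library by log2 ratios of 0.58 and 0.74, less than the 1.14 of the family sum.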

How the data were processed

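The authors deposited a 10x matrix of whole UMI counts per gene and barcode for each library, made with Cell Ranger 3.1.3 and the mm10 build per the submitters' processing notes, while the file headers name 8.0.0. The counts are deposited without normalization, and 0 columns of per-sample values were left unused. Barcodes with under 500 genes, or over 15% of UMIs from mitochondrial genes, were left out. Scrublet (expected rate 0.08) marked 1.27% of control and 3.16% of knockout cells as doublets, which were left out. Both libraries were clustered together with scanpy 1.11.5 (2000 variable genes without the 13 family genes, 30 principal components, 15 neighbours, Leiden resolution 1), in python 3.11.15 with scipy 1.17.1. A cluster took a class name with 3 detected markers (in at least 10% of cells) from 21 marker lists. The detection and tie rules were set after clusters were seen. Clusters that failed them stayed unnamed (930 and 501 cells closest to epithelial/tumour, 534 and 309 others, in control and knockout). The others included a shallow cluster closest to monocyte/macrophage (173 and 127 cells). They also included a cluster closest to cDC2 and led by Lyz2 and Ms4a6c (7 and 88 cells). Joining these to the monocyte/macrophage-like class was not tried.

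UMIs were summed per class and library. Intervals are exact (Poisson for levels, conditional binomial for ratios, Clopper-Pearson for shares). The log2 ratio adds 1 UMI to each sum. A 2-fold difference means a log2 ratio of at least 1 or at most -1 among genes with at least 20 UMIs in the class. The code was tested on simulated data. The members and gene lists were chosen with earlier results of these data known. Named genes are all members, the 3 highest and 3 lowest of each list and class, the 5 most alike, and flanking genes with at least 20 UMIs. Cgas, Tbk1, Pycard, Naip6 and Il1b are named outside that rule in places and were chosen after their values were seen. Alternatives covered filters, doublets, clustering, scaling and cluster weights.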

Additional observations from a re-analysis of the deposited data

Results flagged for a closer look

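Fibroblast-like cells stood apart from the 4 other compared classes. Their log2 ratio of the summed family level, knockout over control library, was −0.08, while those of neutrophil-like (1.81), monocyte/macrophage-like (1.14), epithelial/tumour-like (0.67) and T-like cells (0.31) had intervals above 0. With 1 pooled library in each group the difference between classes was not tested, and the direction in fibroblast-like cells depended on the clustering.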

How the results depend on the processing

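With the stricter cell filter the log2 ratio of the family sum was 3.04 in neutrophil-like cells, 1.3 in monocyte/macrophage-like cells and 0.64 in epithelial/tumour-like cells, and that of Ifi204 in neutrophil-like cells was 4.7. With the looser filter the monocyte/macrophage-like sum gave 1.06. With doublets kept, the epithelial/tumour-like sum gave 0.62 and the fibroblast-like sum 0.04, a change of sign. The fibroblast-like sum also changed sign at Leiden resolution 0.5 (0.24) and with family genes among the variable genes (0.22), and the cause was not tested. With the libraries clustered alone the epithelial/tumour-like sum gave 0.69 and the monocyte/macrophage-like sum 1.45. As a mean over cells the neutrophil-like sum gave 1.22, the monocyte/macrophage-like sum 1.04 and the epithelial/tumour-like sum 0.64. With cells of another lineage left out the monocyte/macrophage-like sum gave 0.95. With clusters weighted alike Ifi206 in epithelial/tumour-like cells gave 1.09, Ifi204 in neutrophil-like cells 1.84, and the sums 1.02 in neutrophil-like cells, 0.49 in monocyte/macrophage-like cells and 0.33 in epithelial/tumour-like cells, while Ifi207 in neutrophil-like cells gave −0.02, a change of sign. The weighting of leukocyte clusters, and leaving out 4 atypical tumour clusters (epithelial/tumour-like sum 0.68), were chosen after seeing the data. Of 80 values of the main results under alternatives, 59 stayed within counting error. Of 100 shares of cells, 41 did so when cells were thinned to 2000 in place of 1000 UMIs and 59 moved. No paired analysis was possible because each group is 1 pooled library. Neutrophil-like cells were the shallowest, and members with few UMIs there have wide intervals.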
